A study of Mus musculus with 6 samples.

Results

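Angptl4 and 8 genes of fatty acid delivery to the heart were examined: the lipase Lpl, its partners Lmf1 and Gpihbp1, the receptors Vldlr and Cd36, the transport protein Slc27a1 and the fatty acid binding proteins Fabp3 and Fabp4. They were taken by symbol from the deposited tables, where each of the 9 symbols matched 1 gene out of 55487, and all 9 had enough counts to be tested among 15727 genes. Angptl4 was selected on its difference between the groups in earlier results of these same libraries, so that difference is given as a description with no test. The other 8 were chosen by their known roles, with those results known.

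The samples were left ventricles of male C57BL/6 wild-type mice, 8 weeks old, from a study of alcoholic cardiomyopathy. The ET group (3 libraries) was fed a diet containing 5% ethanol over 10 days and then given 1 binge of ethanol by gavage. The CONT group (3 libraries) was fed an isocaloric diet over the same time and given maltose-dextrin by gavage, and all hearts were collected 9 h later. The procedure follows the NIAAA chronic and binge feeding model, and the labels do not state that every library is a separate mouse. The p-values therefore cover the spread among these samples alone, and that spread may be technical. Replicate numbers were assigned here by sample order and only name the libraries.

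Lipoprotein lipase is the enzyme that releases fatty acids from triglyceride-rich lipoproteins at the surface of capillaries. Cardiomyocytes make it, the endoplasmic reticulum protein LMF1 helps it to fold, and the endothelial protein GPIHBP1 carries it across the capillary wall and holds it there. ANGPTL4, a secreted protein whose gene is induced by fasting, fatty acids through PPAR factors, and glucocorticoids, inactivates the enzyme, while CD36, FATP1 (the product of Slc27a1), the VLDL receptor and the fatty acid binding proteins take up and carry lipid.

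The libraries held 28838386 to 37762233 expected counts. Markers of ventricular cardiomyocytes summed to 58593 to 70499 CPM (counts relative to the library total, with the totals scaled by TMM) in 5 libraries. In ET replicate 1 they summed to 38415 CPM. Cardiomyocyte RNA was thus present throughout. ET replicate 1 also stood apart by its atrial markers (9246 CPM summed over 8 genes, against 108 to 1720 CPM in the others) and its mesothelial markers (188 CPM over 7 genes, against 7.44 to 31.3 CPM). Its macrophage markers were also higher, at 553 CPM over 8 genes against 241 to 266 CPM. CONT replicate 3 had the next highest atrial sum. The effective gene lengths derived from the files split the libraries into 2 sets that cross the groups. Set 1 held ET replicate 1 together with the first and second CONT replicates, and set 2 held the remaining libraries, ET replicates 2 and 3 and CONT replicate 3.

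The control ventricle held very different amounts of these mRNAs. In TPM, which corrects for transcript length, the CONT means (± SD, n = 3 per group) ran from 3585 ± 156 for Fabp3 through 816 ± 204 for Fabp4, 736 ± 132 for Lpl, 332 ± 30.1 for Cd36, 117 ± 14.8 for Gpihbp1, 57.4 ± 6.48 for Slc27a1, 21.2 ± 5.50 for Vldlr and 10.8 ± 0.419 for Lmf1 to 4.82 ± 0.0777 for Angptl4. The ranges of the CONT libraries overlapped between Fabp4 and Lpl and between no other neighbours in that order. Fabp3 thus ranked 25 and Lpl 88 among the 15727 tested genes, whereas Angptl4 ranked 6872. In ET the order changed at 2 places: Lpl (1004 ± 318 TPM) stood above Fabp4 (664 ± 194 TPM), and Angptl4 (15.7 ± 2.48 TPM) above Lmf1 (12.1 ± 3.12 TPM). Both of these pairs overlapped in their ET ranges.

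**Figure D1:**
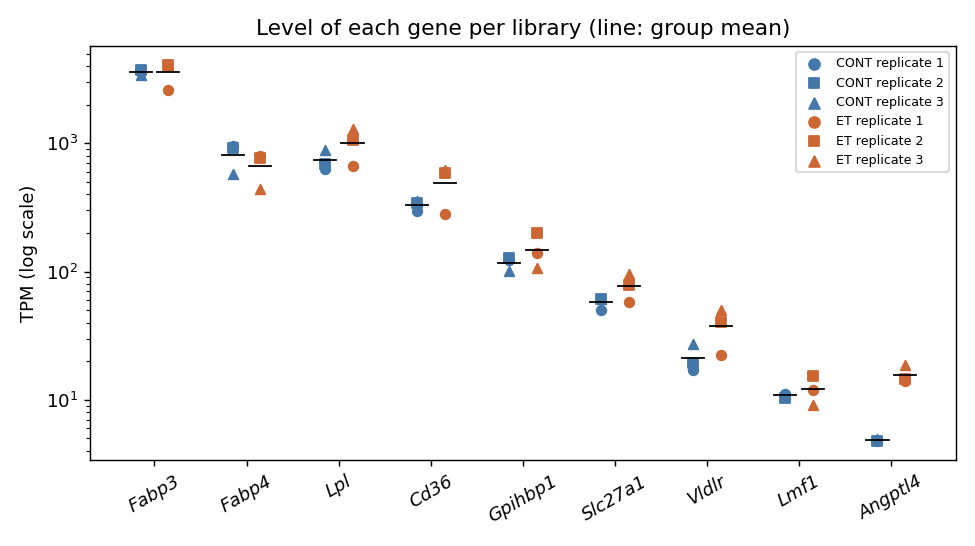
TPM (log axis) of the 9 genes in each of the 6 libraries, ordered by the CONT mean, with points for libraries and a line for each group mean. Levels fall from 3585 TPM for Fabp3 to 4.82 TPM for Angptl4 in CONT, and only for Angptl4 do the points of the groups lie apart.

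The comparison of ET with CONT asks how the pathway's mRNAs stood after ethanol feeding and a binge. Angptl4 was higher in all 3 ET libraries, Lpl, Cd36, Slc27a1 and Vldlr were, in CPM, above every CONT library in 2 ET libraries and below every one in the third, Gpihbp1 and Lmf1 differed little, and Fabp4 and Fabp3 had lower means. The place of ET replicate 1 depends on the scale: in TPM it lay within the CONT range for Lpl (661), Slc27a1 (57.8) and Vldlr (22.4), and below it for Cd36 (279). Of the 9 genes 7 had a higher fitted value in ET and 2 a lower one, with a median log2 fold change of 0.25, beside a median of 0.01 and 51.9% higher over all tested genes. These 7 include Angptl4, which was selected on this difference, and Lmf1, whose log2 fold change was 0.00, so the count is a description only. In edgeR's quasi-likelihood test no gene of the whole table passed an adjusted p of 0.05 (0% of 15727), and 1360 had an unadjusted p under 0.05. DESeq2 called 185 genes (1.20% of the 15365 to which it gave an adjusted p). In CPM the groups lay apart for 1 of the 9 genes, Angptl4, with ET higher, against 15.2% of all tested genes (6.89% with ET higher and 8.36% with ET lower).

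Angptl4 encodes the inhibitor of the lipase. The gene (ENSMUSG00000002289) lies on the minus strand of chromosome 17, from position 33773750 to position 33781830 of GRCm38 (mm10), and all values here cover its exons. Its expected counts, in replicate order, were 347, 277 and 308 for CONT and 807, 881 and 1139 for ET. Scaled, these were 9.50, 10.4 and 9.11 CPM in CONT and 21.5, 25.9 and 37.1 CPM in ET. The CONT libraries lay close together, the ET libraries were spread 1.72-fold, and the lowest ET library was above the highest CONT library. Its fitted log2 fold change was 1.54 ± 0.21 (SE), which corresponds to means of 28.2 ± 8.02 CPM in ET and 9.66 ± 0.646 CPM in CONT (SD, n = 3 per group). In TPM the values were 4.76, 4.80 and 4.91 in CONT and 14.1, 14.5 and 18.6 in ET. Within library set 1 the log2 ratio was 1.12, from 1 ET library, and within set 2 it was 1.79, against 1 CONT library.

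Angptl4 is also expressed in fat and liver, and markers of both varied between the libraries. The 10 adipocyte markers summed to 39.1, 26.9 and 81.6 CPM in CONT replicates 1 to 3 and to 158, 30.9 and 44.6 CPM in ET replicates 1 to 3. The 8 hepatocyte markers summed to 27.7, 25.8 and 44.3 CPM in CONT and to 172, 23.3 and 193 CPM in ET. ET replicate 3, the library with the highest Angptl4, held albumin mRNA (Alb) at 46.8 CPM, and ET replicate 1 held the adipokine Adipoq at 9.28 CPM. The hepatocyte sum of ET replicate 1 was mostly Ahsg (79.7 CPM) and Trf (86.5 CPM), with Alb at 2.16 CPM. Cidea made up most of the adipocyte sum in CONT replicate 2 (25.2 CPM) and in ET replicate 2 (28.1 CPM). In ET replicate 2 both sums lay within or below the CONT range, with Alb at 0.235 CPM and Adipoq at 0.323 CPM, and Angptl4 stood at 25.9 CPM there. None of the genes in either list was at 0 in all libraries. The part of these other tissues in ET replicates 1 and 3 was not tested.

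**Figure D2:**
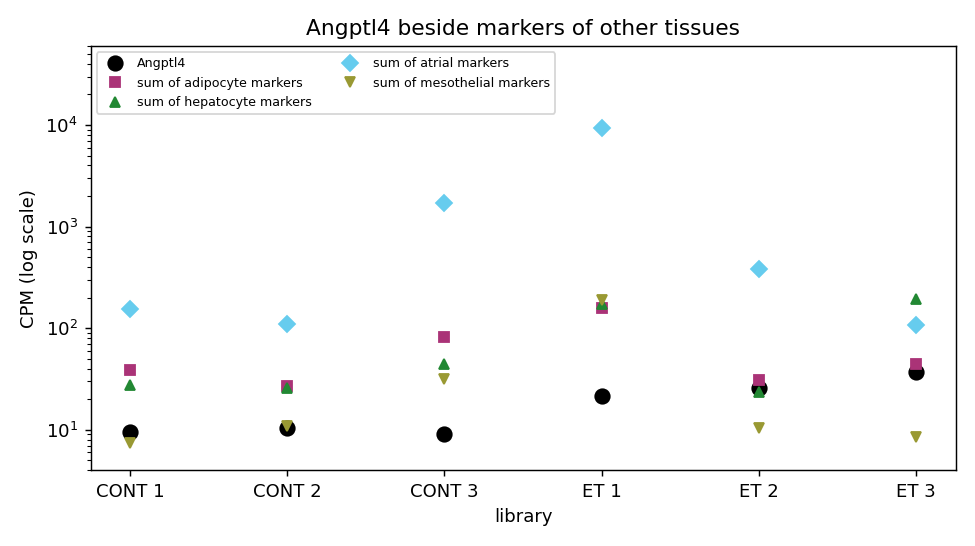
CPM (log axis) of Angptl4 and the summed CPM of 10 adipocyte, 8 hepatocyte, 8 atrial and 7 mesothelial marker genes in each library. ET replicate 2 has 25.9 CPM of Angptl4 with an adipocyte sum of 30.9 CPM and a hepatocyte sum of 23.3 CPM, near those of CONT replicates 1 and 2.

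Lpl encodes the lipase itself (ENSMUSG00000015568, chromosome 8, 68880491 to 68907448, plus strand). It was measured at 2791, 3157 and 3430 CPM in CONT and at 2204, 4001 and 5428 CPM in ET. On this scale ET replicate 1 was the lowest of the 6 libraries and ET replicates 2 and 3 the highest, so the groups overlapped. For Lpl the log2 fold change was 0.31 ± 0.34 (edgeR's quasi-likelihood test, Benjamini-Hochberg adjusted p 0.769). It was -0.43 within set 1, 0.46 within set 2 and 0.01 with a term for the set. As a ratio of the inhibitor's mRNA to that of its target, Angptl4 stood at 0.750, 0.698 and 0.555 TPM per 100 TPM of Lpl in CONT and at 2.13, 1.37 and 1.44 in ET. ET replicate 1 had the highest ratio, with Lpl at 661 TPM there. This ratio shares its numerator with the difference that singled out Angptl4 and is no separate evidence.

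The proteins that fold and anchor the lipase differed little in mRNA. Lmf1, the lipase maturation factor (ENSMUSG00000002279, chromosome 17, 25579085 to 25662826, plus strand), was at 18.8, 18.5 and 16.7 CPM in CONT and at 15.5, 23.3 and 15.4 CPM in ET. Its mean was 18.0 CPM in both groups, and ET replicate 2 was the highest library. Gpihbp1, the capillary anchor (ENSMUSG00000022579, chromosome 15, 75596628 to 75599481, plus strand), was at 98.8, 101 and 69.0 CPM in CONT and at 79.7, 130 and 79.3 CPM in ET. Here too ET replicate 2 was the highest, and the other ET libraries lay within the CONT range. The log2 fold change of Gpihbp1 was 0.10 ± 0.26 (adjusted p 0.909 in the same test).

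Vldlr and Cd36 take up lipoproteins and fatty acids. Vldlr, the very low density lipoprotein receptor (ENSMUSG00000024924, chromosome 19, 27216484 to 27254231, plus strand), was at 135, 158 and 189 CPM in CONT and at 119, 241 and 326 CPM in ET. The ET libraries spanned a 2.75-fold range, the widest of the 9 genes, with ET replicate 1 below and ET replicates 2 and 3 above every CONT library. For Vldlr the log2 fold change was 0.51 ± 0.36 (adjusted p 0.662). Cd36, a scavenger receptor and fatty acid translocase of cardiomyocytes and endothelium (ENSMUSG00000002944, chromosome 5, 17781690 to 17888801, minus strand), was at 851, 1039 and 814 CPM in CONT and at 604, 1217 and 1398 CPM in ET. It showed the same order, lowest in ET replicate 1 and highest in ET replicates 2 and 3. For Cd36 the log2 fold change was 0.25 ± 0.33 (adjusted p 0.809).

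Vldlr and Cd36 are also the 2 genes of the 9 whose effective transcript length varied most between libraries, and their promoters are shown for that reason. Each line gives the 250 bases before a RefSeq start site on GRCm38.p6, 5′ to 3′ on the gene's strand. The Cd36 start used here lies inside the span of the gene given above, not at its outer end (17888801). Capitals mark AGGTCA (as TGACCT on the other strand), the half-site of nuclear receptors such as PPAR, in Cd36, and TGTTCT, the half-site of the glucocorticoid receptor, in Vldlr.
Cd36, chr5:17835897-17836146, minus strand: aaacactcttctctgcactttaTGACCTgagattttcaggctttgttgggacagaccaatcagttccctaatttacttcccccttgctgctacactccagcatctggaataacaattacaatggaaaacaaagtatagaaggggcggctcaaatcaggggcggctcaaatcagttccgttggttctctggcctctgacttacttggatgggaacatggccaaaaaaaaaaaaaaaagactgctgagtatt
Vldlr, chr19:27216234-27216483, plus strand: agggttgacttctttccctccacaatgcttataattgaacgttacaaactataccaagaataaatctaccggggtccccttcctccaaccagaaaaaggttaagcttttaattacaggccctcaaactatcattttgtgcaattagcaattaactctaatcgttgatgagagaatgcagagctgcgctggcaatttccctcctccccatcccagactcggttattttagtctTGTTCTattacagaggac
The Cd36 half-site begins 228 bases and the Vldlr half-site 18 bases before the start. On either strand, AGGTCA stands in 14.0% and TGTTCT in 16.1% of the 32851 windows of this length in the table. A direct repeat of 2 copies of AGGTCA with 1 base between them stands in 0.0335% of the windows, and AGAACA followed after 3 bases by TGTTCT, the full glucocorticoid element, in 0.00913%. Both contain the half-sites above, and neither stands in the 8 windows of Fabp3, Cd36, Slc27a1, Lmf1 and Vldlr. AGGTCA stands in 1 of those 8 windows (Cd36) and TGTTCT in 1 (Vldlr), so the genes shown are also those with a match. Such a match describes letters in a window and shows no binding.

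The effective length of a gene is the mean length of its transcripts, weighted by their estimated shares and reduced for fragment size. For Vldlr it was 7326, 7222 and 7166 bases in CONT and 6405, 6361 and 6209 bases in ET. All 3 ET libraries were shorter than all 3 CONT libraries, in both library sets, by 12.6% on average. Lengths were first read as a description, and a test was added after these values were seen: the log2 ratio was -0.19 ± 0.016 (limma over 8130 well-covered genes, Benjamini-Hochberg adjusted p 0.166), and a change of this size or more was seen in 5.22% of those genes. No gene passed at an adjusted p of 0.05, and 600 had an unadjusted p under 0.05. The exact two-sided permutation test for Vldlr gave p = 0.1, the smallest that 3 libraries against 3 allow. With a term for the set the ratio was also -0.19 (adjusted p 0.352 in limma). GENCODE vM21 lists 8 Vldlr transcripts of 454 to 7971 bases, 5 of them coding. The shares of the single transcripts were not analysed here.

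For Cd36 the effective length followed the library sets. It was 2625, 2660 and 2625 bases in CONT replicates 1 and 2 and ET replicate 1, and 2394, 2241 and 2174 bases in CONT replicate 3 and ET replicates 2 and 3. The sets were read from effective lengths, so this gap has no test. In the comparison of ET with CONT the log2 ratio was -0.13 ± 0.091 (limma, adjusted p 0.805). Groups that did not overlap in effective length were found for 2 of the 9 genes, Vldlr and Lmf1, against 12.6% of the well-covered genes (7.24% with ET shorter). Lmf1 differed by 2.82% (1557 to 1573 bases in CONT, 1581 to 1629 in ET). Among the other genes Gpihbp1 ran from 689 to 735 bases and Angptl4 from 1834 to 1932 bases with the groups overlapping. Lpl lay between 4037 and 4040 bases and Fabp3, with 1 listed transcript, at 749 bases. TPM divides by this length and is also scaled differently from CPM. The ET to CONT ratio of the means was 1.78 in TPM against 1.42 in CPM for Vldlr, 1.48 against 1.19 for Cd36 and, with a constant length, 1.36 against 1.24 for Lpl.

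**Figure D3:**
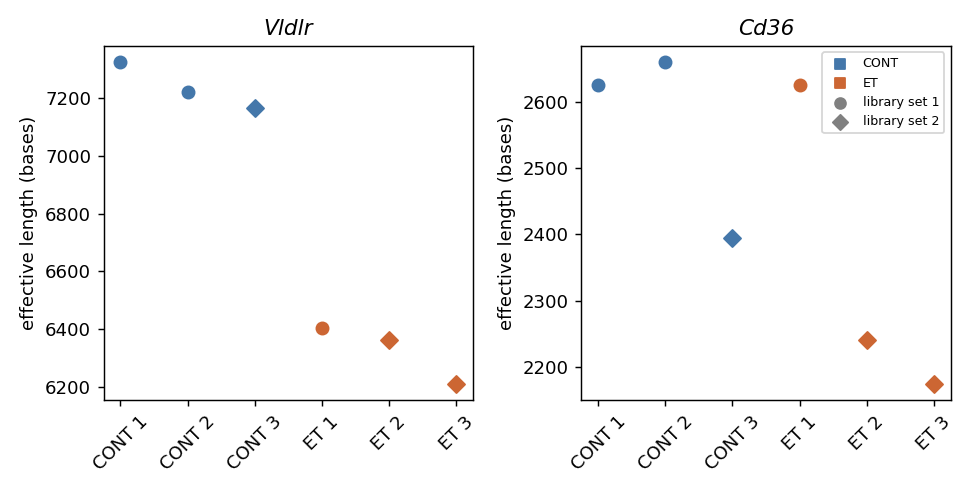
Effective length in bases of Vldlr (left) and Cd36 (right) in each library, coloured by group, with circles for library set 1 and diamonds for set 2 (the axes do not start at 0). Vldlr separates by group, at 7166 bases or more in CONT and 6405 or fewer in ET, and Cd36 separates by set.

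Slc27a1 encodes FATP1, a fatty acid transport protein with acyl-CoA synthetase activity (ENSMUSG00000031808, chromosome 8, 71568882 to 71587302, plus strand). It was at 128, 161 and 139 CPM in CONT and at 109, 168 and 238 CPM in ET. ET replicate 1 was again the lowest and ET replicates 2 and 3 the highest. The log2 fold change was 0.27 ± 0.29 (adjusted p 0.772 in edgeR's test).

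The binding proteins carry fatty acids through the cytoplasm. Fabp3, the heart and muscle form (ENSMUSG00000028773, chromosome 4, 130308595 to 130315463, plus strand), was at 2910, 3187 and 2470 CPM in CONT and at 1608, 2865 and 3195 CPM in ET. ET replicate 1 stood below the rest. ET replicate 2 lay within the CONT range and ET replicate 3 just above it. The log2 fold change was -0.16 ± 0.29 (adjusted p 0.867), and 19.6% of its exon bases are shared with genes on the opposite strand, among them Zcchc17, so its value is uncertain. Fabp4, the form of endothelium, fat and macrophages (ENSMUSG00000062515, chromosome 3, 10204088 to 10208576, minus strand), was at 930, 918 and 501 CPM in CONT and at 586, 648 and 411 CPM in ET. It was high in CONT replicates 1 and 2 and lower in the other 4 libraries, with ET replicate 3 the lowest. The log2 fold change was -0.51 ± 0.31 (adjusted p 0.626).

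Gpihbp1 and Fabp4 are genes of the capillary wall. The 12 endothelial markers summed to 2223, 2201 and 1467 CPM in CONT and to 2186, 2206 and 1581 CPM in ET, and 4 of the 12 were higher and 8 lower in ET. CONT replicate 3 and ET replicate 3, with the lowest sums, also held the lowest Fabp4 (501 and 411 CPM) and the lowest Gpihbp1 (69.0 and 79.3 CPM). The sums of ET replicates 1 and 2 were near those of CONT replicates 1 and 2, but single markers differed in opposite directions. Kdr was at 104 and 108 CPM in these ET libraries against 254 and 207 CPM in these CONT libraries. Aqp1 was at 543 and 676 CPM against 375 and 477 CPM. Fabp4 was at 586 and 648 CPM in these ET libraries, against 930 and 918 CPM in these CONT libraries. Gpihbp1 was at 79.7 CPM in ET replicate 1 and at 130 CPM in ET replicate 2. In bulk tissue fewer cells of a type and less RNA per cell cannot be told apart, and the part of endothelial content in these values was not tested.

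Across the 9 genes in CPM, ET replicate 3 was the highest library for 6 and ET replicate 1 the lowest for 5. In TPM, ET replicate 3 was the highest for 5, and ET replicate 1 was the lowest for 2 (Cd36 and Fabp3). Relative to the CONT mean, Lpl, Cd36, Slc27a1 and Vldlr stood at log2 values of -0.39 to -0.58 in ET replicate 1, 0.24 to 0.58 in ET replicate 2 and 0.63 to 1.02 in ET replicate 3. ET replicate 1 was also the library with the lowest cardiomyocyte sum (38415 CPM) and the highest atrial and fibroblast sums (9246 and 4126 CPM), and the part of tissue makeup was not tested. When the pair with most atrial RNA (ET replicate 1, CONT replicate 3) was removed, the log2 fold changes were 0.69 for Lpl, 0.49 for Cd36, 0.51 for Slc27a1 and 0.97 for Vldlr. Vldlr then passed edgeR's test (adjusted p 0.0401), as did 5.27% of all genes, and group and library set cannot be told apart in the 4 remaining libraries. Without ET replicate 3 the values were -0.01 for Lpl, 0.01 for Cd36, -0.05 for Slc27a1 and 0.16 for Vldlr, and with a term for the set they were 0.01, 0.02, 0.07 and 0.14.

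**Figure D4:**
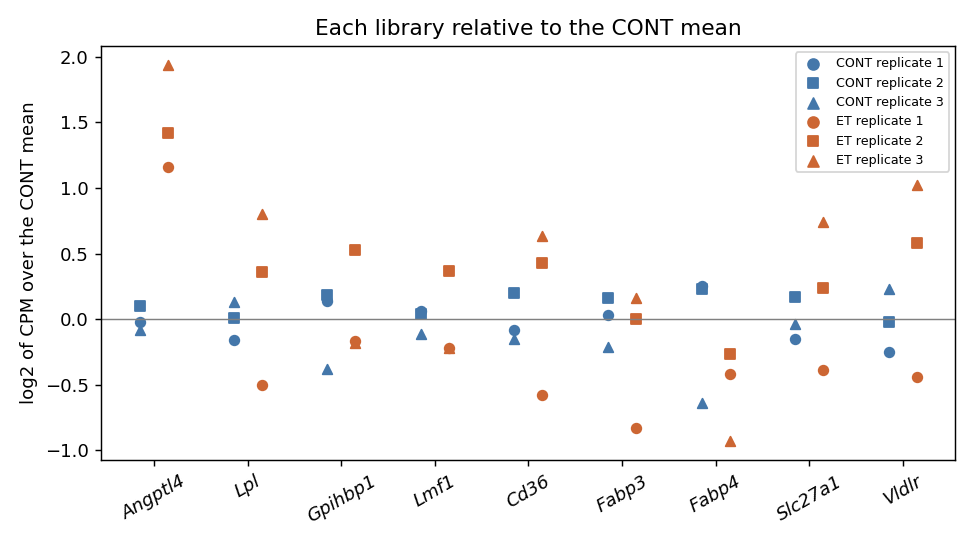
Log2 of the CPM of each library over the CONT mean of the gene, for the 9 genes, with blue points for CONT and orange points for ET. Angptl4 lies at 1.16 to 1.94 in all 3 ET libraries, while for Lpl, Cd36, Slc27a1 and Vldlr ET replicate 1 lies below 0 and ET replicates 2 and 3 above 0.

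Profiles over the 6 libraries were compared by the root mean square difference of centred log2 CPM values, as a description. Among 11943 coding genes the 5 nearest to Angptl4 were Rnf39, a RING finger protein (0.15), Cdkn1a, an inhibitor of cyclin-dependent kinases (0.22), Osgin1, an oxidative stress response gene (0.23), Lonrf3 (0.27) and Txnip, an inhibitor of thioredoxin (0.28), against a median of 0.82. Cdkn1a, for example, was at 11.8, 21.5 and 15.6 CPM in CONT and at 33.0, 40.6 and 55.1 CPM in ET. Rnf39 was at 0.769 to 1.01 CPM in CONT and 1.57 to 3.06 CPM in ET. Lonrf3 was at 0.465 to 0.674 CPM in CONT and 1.38 to 1.82 CPM in ET. Both have few counts and reached the minimum mean of 1 CPM for candidates only through their ET libraries. The other 8 genes of the pathway, which were not among the candidates, were at distances from Angptl4 of 0.62 (Vldlr) to 1.11 (Fabp4), on both sides of that median. The 5 nearest are the extremes of 11943 distances, so a gap between them and the 8 carries no information. The profile of Angptl4 also holds the group difference on which it was selected. The 3 genes nearest to Lpl were Optn, an autophagy receptor (0.03), Rab12, a small GTPase (0.05), and Kyat3, a kynurenine aminotransferase (0.06), against a median of 0.46. Vldlr and Slc27a1 (both 0.12) and Cd36 (0.16) were also near to Lpl. These genes share their 6 libraries, so any library effect enters every distance.

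The rest of the lipase pathway and of lipid uptake was read from 5 further lists, and edgeR called 0 genes in each of them. DESeq2 called Mylip, 1 of 10 tested receptors and regulators, and Cpt1a and Pdk4, 2 of 24 tested PPAR targets. Over all genes to which it gave an adjusted p, the share called was 1.20%. Of 22 regulators and maturation factors of the lipase 15 were tested, of which 14 were higher in ET and 1 lower, with a median log2 fold change of 0.31. That median was 0.16 without ET replicate 1, 0.49 without CONT replicate 3 and 0.12 without both. Sel1l, which helps the lipase leave the endoplasmic reticulum, was at 37.9, 37.6 and 42.4 CPM in CONT and at 46.5, 44.9 and 49.2 CPM in ET. Its groups did not overlap, as for no other of the 15 tested genes here, against 15.2% of all tested genes. The log2 fold change of Sel1l was 0.26 ± 0.12 (adjusted p 0.582). Sdc4, a heparan sulfate proteoglycan, had 0.66 ± 0.33 (adjusted p 0.585), with 25.3 CPM in ET replicate 1, 9.58 and 18.3 CPM in the other ET libraries and 9.36 to 12.7 CPM in CONT. Its log2 ratio was 1.28 within set 1 and 0.13 within set 2. Furin, a protease that cleaves ANGPTL4 and the lipase, had 0.59 ± 0.33 (adjusted p 0.610). Angptl8, Apoc1, Apoc2, Apoc3, Apoa5, Lipc and Lipg had too few counts to be tested.

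Of 11 lipoprotein receptors and their regulators 10 were tested, 7 higher and 3 lower, with a median of 0.13. Leaving out single libraries gave medians from 0.05 (without ET replicate 1) to 0.31 (without CONT replicate 1), with 0.30 without ET replicate 3 and 0.26 without ET replicate 2. Mylip, the ubiquitin ligase that marks the LDL receptor family (VLDL receptor included) for breakdown, was at 29.5, 26.1 and 28.1 CPM in CONT and at 47.2, 53.4 and 56.0 CPM in ET. All ET libraries were above all CONT libraries, as for 2 of the 10 tested genes here and 6.89% of all tested genes. The log2 fold change was 0.90 ± 0.13 (adjusted p 0.427 in edgeR, 4.20e-06 in DESeq2). Lrp1, a large endocytic receptor, had 0.96 ± 0.39, led by ET replicate 1 (358 CPM, against 92.3 to 178 CPM in the others). Lsr, a lipolysis-stimulated lipoprotein receptor, had 1.58 ± 0.79 and was at 10.4 CPM in ET replicate 1 and at 1.12 to 1.92 CPM in the other 5 libraries. Both genes were highest in the library with the highest mesothelial and atrial sums. Within set 2, which lacks it, the log2 ratios were 0.09 for Lrp1 and -0.34 for Lsr, against CONT replicate 3 alone. That library had the highest Lrp1 of the CONT group (143 CPM, against 105 and 92.3 CPM). ET replicate 2 held Lrp1 at 178 CPM, above the CONT range, and ET replicate 3 held it at 128 CPM, within that range.

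Fatty acid entry, binding and activation was the list with more lower than higher genes. Of 23 genes 18 were tested, 6 higher and 12 lower, with a median of -0.10, which was 0.00 without ET replicate 1 and 0.04 with limma-trend on TPM. Acsl4, an acyl-CoA synthetase for polyunsaturated fatty acids, was at 8.65, 10.2 and 9.91 CPM in CONT and at 14.8, 12.0 and 11.6 CPM in ET (log2 fold change 0.42 ± 0.15, adjusted p 0.531). Vegfb, a growth factor linked to endothelial fatty acid transport, was at 195, 220 and 185 CPM in CONT and at 119, 160 and 176 CPM in ET (-0.40 ± 0.19, adjusted p 0.584). In neither of them did the groups overlap. The list held 1 such gene with ET higher and 1 with ET lower among 18, against 15.2% of all tested genes. Fabp1, the liver form of the binding proteins, was at 35.9 CPM in ET replicate 3 and near or below 1.2 CPM in the other 5 libraries, and ET replicate 3 was also the library with Alb at 46.8 CPM. The endothelial regulators Meox2 and Tcf15 (log2 fold changes -0.58 ± 0.37 and -0.61 ± 0.38) were, like Fabp4, lowest in ET replicate 3 (10.5 and 10.7 CPM). Slc27a2, Slc27a5, Slc27a6, Fabp2 and Fabp7 had too few counts.

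All 16 nuclear receptors and transcription factors of lipid genes were tested, 11 higher and 5 lower, with a median of 0.21. The sign of that median turned without ET replicate 3 (-0.04) and with the library set term (-0.09), and it was 0.37 without ET replicate 1, 0.12 without ET replicate 2 and 0.10 without CONT replicate 1. Tfeb, a regulator of lysosome genes, was at 25.5, 28.6 and 24.5 CPM in CONT and at 19.9, 21.0 and 21.7 CPM in ET (log2 fold change -0.33 ± 0.12, adjusted p 0.533). Foxo1, a factor restrained by insulin, was at 21.8, 20.3 and 19.7 CPM in CONT and at 27.0, 24.7 and 22.8 CPM in ET (0.27 ± 0.12, adjusted p 0.574). Neither gene overlapped between the groups. Among these 16 genes 2 lay apart with ET higher and 1 with ET lower, against 15.2% of all tested genes in either direction. Klf15, a glucocorticoid-induced factor, was at 22.4, 21.9 and 47.8 CPM in CONT and at 27.5, 61.1 and 69.3 CPM in ET, and followed the library sets as well as the group.

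Of 25 other PPAR target genes 24 were tested, 19 higher and 5 lower, with a median of 0.17, and Fgf21 was not tested. The sign of this median turned as well, to -0.25 without ET replicate 3 and to -0.20 once the set was a term, and it was 0.51 without ET replicate 1, 0.28 without CONT replicate 3 and 0.07 without CONT replicate 1. Cpt1a, a form of the enzyme that commits fatty acids to mitochondrial oxidation, was at 39.2, 35.6 and 33.8 CPM in CONT and at 57.7, 54.6 and 55.8 CPM in ET. Like Angptl4, it was high in all 3 ET libraries, ET replicate 1 included, with a log2 fold change of 0.63 ± 0.12 (adjusted p 0.427) and ratios of 0.63 and 0.71 within the sets. Cpt1b, another form of that enzyme with far more mRNA here, was at 499, 557 and 481 CPM in CONT. In ET it was at 286, 454 and 709 CPM, with a log2 fold change of -0.08 ± 0.33 (adjusted p 0.945 in edgeR's test). Pdk4, a kinase that shuts off pyruvate oxidation, was at 147, 220 and 271 CPM in CONT and at 289, 1564 and 1520 CPM in ET. ET replicate 1 lay just above the CONT libraries, and the log2 fold change was 2.40 ± 0.62 (adjusted p 0.478). Groups that lay apart with ET higher were found for 2 of these 24 genes, against 6.89% of all tested genes. Ehhadh, a peroxisomal oxidation enzyme, had 1.16 ± 0.42, from ET replicates 2 and 3 alone (22.0 and 26.6 CPM, against 7.47 CPM in ET replicate 1 and 7.44 to 9.20 CPM in CONT).

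**Figure D5:**
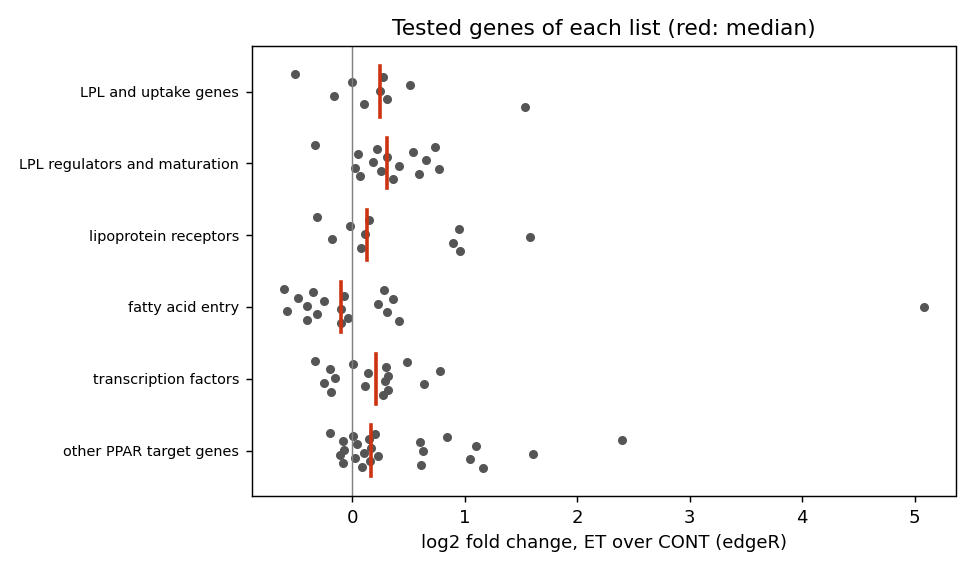
Log2 fold change (ET over CONT, edgeR) of every tested gene in 6 lists, with points for genes and a red line for the list median. Medians run from -0.10 for fatty acid entry to 0.31 for the lipase regulators, and the point at 5.08 is Fabp1, which was high in ET replicate 3 only.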

How the data were processed

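The 6 left ventricle libraries (3 CONT, 3 ET) were processed on mm10 with STAR (2.7.0f) and RSEM (1.2.31), per the submitters' processing notes. Which annotation release was used, and whether strand was, is not given in the sources used here. The authors deposited expected counts per gene, estimated and not normalized, which summed to 28838386 to 37762233 per library. Per the file headers, the deposited files also hold TPM and FPKM. The FPKM values of the authors served here only to derive effective lengths. Among nonzero expected counts 65.7% to 67.3% were whole within 0.005.

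Counts were rounded, filtered with filterByExpr (minimum count 10, minimum total 15, leaving 15727 genes) and scaled by TMM. The groups were compared in edgeR (robust quasi-likelihood, two-sided tests, Benjamini-Hochberg over all tested genes), and each SE is the log2 fold change over the root of its F statistic. Effective length is the expected count over FPKM, scaled by the library total, for values of at least 20 counts and 0.5 FPKM. Ward clustering of 8128 genes with at least 200 counts in every library gave the 2 library sets, and limma compared 8130 well-covered genes. Software was R 4.3.3 with limma 3.58.1, edgeR 4.0.16 and DESeq2 1.42.0, plus Python 3.11.15 with SciPy 1.17.1. The count and length fits were tested on simulated data, where DESeq2 called more unchanged genes than edgeR, also with no gene changed. Of the changed genes edgeR called fewer than DESeq2, and both missed most of those changed 2-fold. Coordinates and exon overlaps are from GENCODE vM21 (GRCm38) and promoters from RefSeq (GRCm38.p6), where 5 of the 9 symbols matched. Angptl4, Lpl, Gpihbp1 and Fabp4 did not.

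The 9 genes and all lists were chosen with earlier results of these data known. Named besides the 9 are the 3 genes of each pathway list with the lowest p, and the 5 nearest to Angptl4 and 3 nearest to Lpl (mean CPM of at least 1, coding, no predicted locus). Meox2, Tcf15, Cpt1b, Alb, Adipoq, Ahsg, Trf, Cidea, Kdr and Aqp1 were named after their values were seen. Some list genes are not reported here by name. Marker lists covered capillary endothelium, adipocytes, ventricular cardiomyocytes, atrium, fibroblasts, mesothelium, macrophages and hepatocytes. Alternatives changed the scaling (RLE, upper-quartile, totals only), the filter (none, or CPM of at least 1 in 3 libraries), the tool (DESeq2, or limma-trend on TPM with 1 or 0.1 added, mean TPM of at least 0.5) and the samples (each library left out, CONT replicate 3 with ET replicate 1 left out). Others dropped mitochondrially encoded genes or added a library set term.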

Additional observations from a re-analysis of the deposited data

How the results depend on the processing

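Over the 17 alternatives Angptl4 stayed higher in ET (log2 fold change 1.29 to 1.72), Vldlr stayed higher (0.14 to 0.97) and Fabp4 stayed lower (-0.78 to -0.29). Within library sets 1 and 2, however, the log2 ratios were -0.31 and 0.59 for Vldlr and -0.66 and 0.08 for Fabp4. Their direction thus differed between the sets, while Angptl4 had 1.12 and 1.79. The values 0.97 and -0.78 came from the fit without ET replicate 1 and CONT replicate 3. The count of genes called was 0 in the main test and 0 without each library in turn, 1 and 2 with limma-trend on TPM with 1 and 0.1 added, 185 with DESeq2 and 828 without the pair ET replicate 1 and CONT replicate 3. In that last fit group and library set coincide, and for the others the cause was not tested. Leaving out single libraries in turn changed the sign of 5 log2 fold changes. Lpl ran from -0.01 (without ET replicate 3) to 0.61, Slc27a1 from -0.05 (without ET replicate 3) to 0.52, Gpihbp1 from -0.18 (without ET replicate 2; -0.04 without CONT replicate 3) to 0.24, Lmf1 from -0.22 (without ET replicate 2; -0.03 without CONT replicate 3) to 0.12, and Fabp3 from -0.35 to 0.10 (without ET replicate 1). Lmf1 was also at -0.04 with upper-quartile factors and -0.03 with the set term, and Fabp3 at 0.01 without the pair. Library totals and limma-trend on TPM moved the median of all genes to 0.12, 0.15 and 0.18, so that fold changes there stand relative to that shift. Of 221 recomputed list medians 209 stayed within 1 SD of the spread between libraries and 12 did not. That spread is wide, and within it the medians of the transcription factors, the PPAR targets and the endothelial, fibroblast and adipocyte markers changed sign. Without ET replicate 1 the adipocyte median moved from 0.67 to -3.27, the atrial from 2.05 to -2.64 and the mesothelial from 2.69 to -0.68. The mesothelial median moved to 5.93 without CONT replicate 3, and the macrophage median from 0.39 to -0.14 without the pair. Hepatocyte markers moved from 3.07 to 1.04 in limma-trend with 1 added and to 1.15 without ET replicate 3. Fatty acid entry moved from -0.10 to 0.04 in limma-trend, 0.00 without ET replicate 1 and 0.02 without the pair, and the lipase regulators to 0.56 in limma-trend with 0.1 added. The log2 ratio of the Vldlr effective length was -0.19 with the set term and from -0.20 to -0.18 without single libraries. No paired analysis was possible because the labels give no replicate numbers, and those used here follow sample order and pair nothing.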

Other observations

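Among the endothelial markers, whose summed level did not separate the groups, 2 genes had group ranges that did not overlap, in opposite directions. Kdr, the main receptor for VEGF, was at 254, 207 and 117 CPM in CONT replicates 1 to 3 and at 104, 108 and 68.8 CPM in ET replicates 1 to 3. Aqp1, a water channel of capillaries, was at 375, 477 and 361 CPM in CONT and at 543, 676 and 508 CPM in ET. The log2 fold changes were -1.04 ± 0.32 and 0.51 ± 0.21, and neither passed (adjusted p 0.515 and 0.571 in edgeR's quasi-likelihood test). Such non-overlap was found in 15.2% of all tested genes.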
